A study of Mus musculus with 9 samples.

Results

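The endoplasmic reticulum (ER) stress and integrated stress response genes described here were Hspa5, Hsp90b1, Xbp1, Herpud1, Atf4, Ddit3, Atf5, Trib3, Chac1 and Asns. These 10 genes were chosen by name as known genes of these responses, with earlier results of these data known. They were found by symbol among the 52550 genes of the count table, and all 10 were among the 18699 genes with enough counts to be tested. RNA-seq libraries were made from the cords of 9 C57BL/6N mice, adult females, with 3 per group and all on day 7 after surgery. Mice of the Sham group had a laminectomy and no contusion. Mice of the SCI group had a contusion of the cord at T10 and intraperitoneal injections of the vehicle DMSO. Mice of the SCI+FIPI group had the same contusion and intraperitoneal injections of FIPI, an inhibitor of phospholipase D, begun right after injury and continued until the tissue was taken. Whether Sham mice were injected with vehicle is not stated, and none of the 3 groups was uninjured mice given FIPI. The tissue was a cord segment around the injury site and holds all its cell types mixed. All the neuron, astrocyte and oligodendrocyte markers that were listed were detected in every mouse.

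As background, unfolded protein in the ER is sensed by IRE1, PERK and ATF6. IRE1 splices the mRNA of Xbp1, cleaved ATF6 switches on chaperone genes such as Hspa5, and PERK phosphorylates the translation factor eIF2α. Phosphorylation of eIF2α by PERK or by the kinases that sense amino acid shortage, viral RNA or heme shortage is the integrated stress response, which lowers protein synthesis overall while favoring translation of Atf4, whose protein switches on amino acid supply genes such as Asns and, with CHOP (the product of Ddit3), regulators such as Trib3 and Chac1. Much of this control acts on splicing and translation, which counts of reads per gene do not measure.

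Sequence upstream of the start site is shown for 5 of the genes, since these windows hold the known response elements of the pathways. The sequences are those of RefSeq on GRCm38.p6, the 250 bases before the annotated start, written along the strand of the gene, and they were found for all 10 genes. The motifs searched on both strands were the ER stress response element, CCAAT and CCACG with any 9 bases between (ERSE), its second form, ATTGG and CCACG with any 1 base between (ERSE-II), the unfolded protein response element TGACGTGG, and TGATGNAA, the element bound by C/EBP and ATF factors (CARE). No 2 of these motifs overlapped in the windows printed. Capitals mark the matches, which are descriptions of letters and not of binding.
Hspa5, chr2:34771840-34772089, forward strand, ERSE: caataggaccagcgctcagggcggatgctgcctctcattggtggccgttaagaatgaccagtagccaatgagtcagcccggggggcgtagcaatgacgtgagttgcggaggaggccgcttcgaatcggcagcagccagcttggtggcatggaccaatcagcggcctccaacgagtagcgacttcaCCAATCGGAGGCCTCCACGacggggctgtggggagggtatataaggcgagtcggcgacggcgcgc
Hsp90b1, chr10:86705445-86705694, reverse strand, ERSE on each strand: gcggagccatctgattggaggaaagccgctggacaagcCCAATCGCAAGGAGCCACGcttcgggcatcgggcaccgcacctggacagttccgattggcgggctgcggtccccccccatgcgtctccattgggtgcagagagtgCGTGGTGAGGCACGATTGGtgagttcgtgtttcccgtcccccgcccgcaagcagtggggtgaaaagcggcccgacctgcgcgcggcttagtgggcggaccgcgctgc
Herpud1, chr8:94386179-94386428, forward strand, CARE and then ERSE-II: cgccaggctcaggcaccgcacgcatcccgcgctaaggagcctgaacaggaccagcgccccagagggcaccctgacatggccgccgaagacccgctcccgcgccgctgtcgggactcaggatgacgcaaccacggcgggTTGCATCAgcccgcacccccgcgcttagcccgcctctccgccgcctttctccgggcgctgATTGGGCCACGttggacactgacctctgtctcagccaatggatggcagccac
Chac1, chr2:119350992-119351241, forward strand, CARE: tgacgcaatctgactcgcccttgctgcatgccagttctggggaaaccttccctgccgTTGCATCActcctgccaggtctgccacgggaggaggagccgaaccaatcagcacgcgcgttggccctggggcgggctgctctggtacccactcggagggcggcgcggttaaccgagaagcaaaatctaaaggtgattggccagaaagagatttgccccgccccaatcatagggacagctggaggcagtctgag
Asns, chr6:7693210-7693459, reverse strand, CARE: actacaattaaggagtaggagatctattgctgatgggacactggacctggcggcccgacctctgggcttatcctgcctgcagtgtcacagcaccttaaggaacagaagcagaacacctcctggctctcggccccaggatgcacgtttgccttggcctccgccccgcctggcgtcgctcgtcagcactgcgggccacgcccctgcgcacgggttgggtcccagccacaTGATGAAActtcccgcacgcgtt

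ERSE was found in 0.119% of 32851 mouse promoters of the same length, counted from 250 bases before to 50 after each start, and in those of Hspa5 and Hsp90b1 among the 10 genes. It lay 65 bases before the start of Hspa5, and 212 and 107 bases before that of Hsp90b1. ERSE-II, present in 0.0365% of all promoters, was found 52 bases before the start of Herpud1. CARE was present in 3.97% of all promoters. It lay 193 bases before the start of Chac1, 112 before that of Herpud1 and 23 before that of Asns, and in Trib3 it lay 15 bases after the start, outside the windows printed. The unfolded protein response element, present in 0.676% of all promoters, was in none of the 11 promoters of the 10 genes, of which Atf5 has 2. The windows of Atf4, Ddit3, Atf5 and Xbp1 held none of the 4 motifs. These distances are from the RefSeq starts, which for some genes differ from the GENCODE M21 gene coordinates given below. By those coordinates the matches of Hspa5 and Asns lay inside the gene, and that of Trib3 lay upstream of it.

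Levels are given as CPM, each mouse's counts divided by its TMM-normalized total in units of 1e+06 counts, and differences as log2 fold changes with standard error (SE). Genes counted as changed where the log2 fold change was 0.5 or more in size and the adjusted p under 0.05, with both called the limits. The test was the quasi-likelihood test of edgeR, Benjamini-Hochberg adjusted over all genes tested, and all adjusted p-values are from it. Total counts were 20806000 to 24016169 in Sham mice, 23981165 to 24582377 in SCI mice and 22364964 to 23703938 in SCI+FIPI mice, so that depth differed little between groups. Between groups of 3 mice the exact two-sided permutation test of a single gene cannot give a p under 0.1, which is its value wherever the groups do not overlap.

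In the SCI group compared with the Sham group, 4 of the 10 genes rose (Trib3, Atf5, Xbp1 and Hspa5), 1 fell (Asns) and 5 did not pass both limits (Atf4, Ddit3, Hsp90b1, Herpud1 and Chac1). The falls numbered 3 with offsets for GC content and length, and 2 without Sham mouse 3 or without SCI mouse 2, while the rises stayed at 4. This count of 5 of 10 stands beside 47.0% of all genes tested, a share near that background. The 4 rises stand beside 24.4% of all genes and the fall beside 22.5%. With an adjusted p under 0.05 at any fold there were 9 of the 10 genes, 7 higher and 2 lower, beside 65.9% of all genes, 33.5% higher and 32.4% lower. By sign alone 7 of the 10 were higher, beside 49.8% of all genes. The median log2 fold change of the 10 genes was 0.34, beside -0.003 for all genes.

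**Figure D1:**
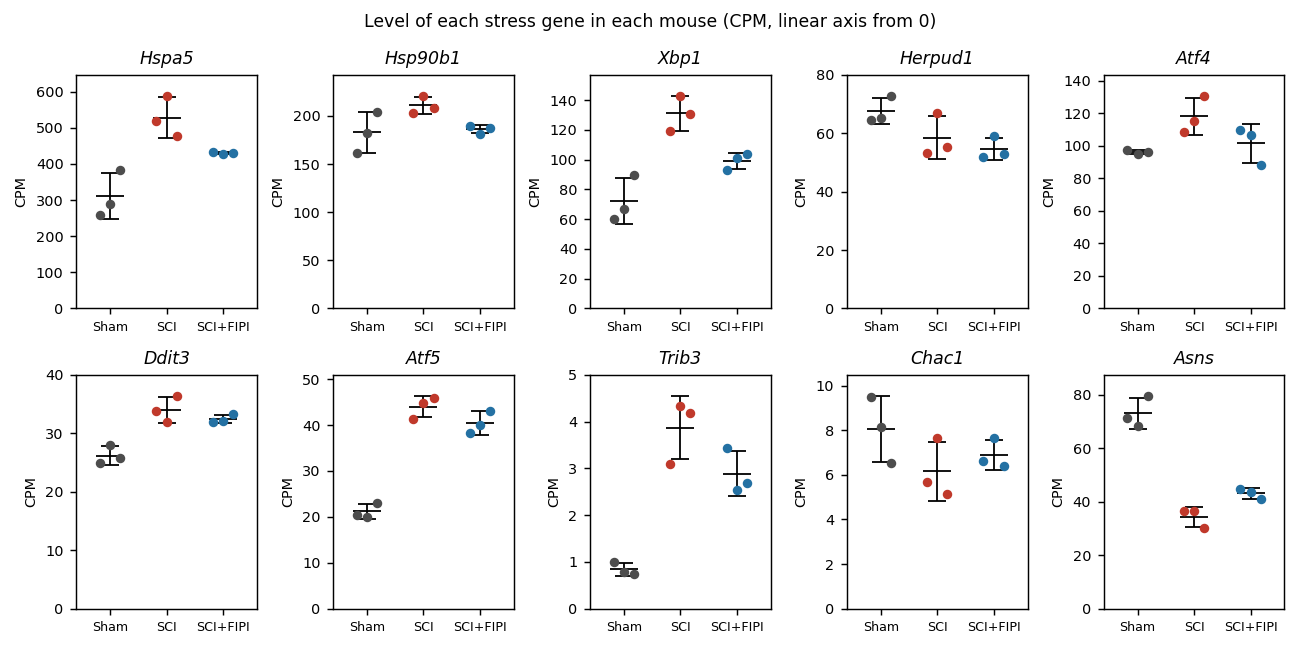
Level of each of the 10 genes in each mouse, as CPM on linear axes that start at 0 (grey, Sham; red, SCI; blue, SCI+FIPI), with the mean and SD of 3 mice as bars. Trib3, Atf5, Xbp1 and Hspa5 lie higher in all SCI mice than in all Sham mice, and Asns lies lower.

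Hspa5 (ENSMUSG00000026864, chr2:34771970-34777547), which encodes BiP, the main Hsp70 chaperone of the ER lumen, had 259, 290.2 and 383 CPM in the Sham mice, 519, 589 and 478 in the SCI mice, and 433, 429 and 429.5 in the SCI+FIPI mice. The 3 groups did not overlap, with the SCI+FIPI mice in between and close to each other, while Sham mouse 3 was the highest of its group. The level of SCI mice was 1.70-fold that of Sham mice (log2 0.77, SE 0.129, adjusted p = 0.000348). Hsp90b1 (ENSMUSG00000020048, chr10:86690209-86705509), which encodes GRP94, the Hsp90 chaperone of the ER, had 162, 183 and 204 CPM in the Sham mice, 203, 221 and 208 in the SCI mice, and 189.5, 181.5 and 188 in the SCI+FIPI mice. Sham mouse 3 overlapped the SCI mice, and the log2 fold change in the SCI group was 0.21 (SE 0.0747, adjusted p = 0.0251), short of the limit on the fold. Of the 2 genes with ERSE before the RefSeq start, Hspa5 was called and Hsp90b1 was not. Exons of 1810014B01Rik overlap those of Hsp90b1 by 415 bases on the opposite strand and Gm15344 and Gm25745 lie on the same strand, so that its counts may hold reads of these genes.

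Xbp1 (ENSMUSG00000020484, chr11:5520659-5525893) encodes the transcription factor activated by IRE1, and its gene count does not tell the spliced from the unspliced mRNA. It had 60.4, 67.1 and 89.6 CPM in the Sham mice, 119, 143 and 131 in the SCI mice, and 93.4, 101 and 104 in the SCI+FIPI mice. As for Hspa5, the groups did not overlap, the SCI+FIPI mice were intermediate and Sham mouse 3 was the highest Sham mouse. The Xbp1 level of SCI mice was 1.81-fold that of Sham mice (log2 0.86, SE 0.133, adjusted p = 0.000297). Herpud1 (ENSMUSG00000031770, chr8:94386438-94395377), an ER membrane protein of the degradation machinery, had 64.7, 65.4 and 72.8 CPM in the Sham mice, 53.2, 67.1 and 55.3 in the SCI mice, and 52.0, 59.1 and 53.1 in the SCI+FIPI mice. SCI mouse 2 lay within the Sham range while the other two SCI mice lay lower. Its log2 fold change in the SCI group was -0.21 (SE 0.0872, adjusted p = 0.0474), under the fold limit and opposite in sign to those of Hspa5 and Xbp1. Under offsets for the GC content and length of genes this reached -0.52 and passed both limits, as given with the other settings.

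Of Atf4, Atf5 and Ddit3, the transcription factors of the integrated stress response among the 10 genes, Atf5 passed both limits. Atf5 (ENSMUSG00000038539, chr7:44812256-44816658), related to Atf4 and likewise under translational control, had 20.5, 20 and 23.1 CPM in the Sham mice, 41.4, 44.7 and 45.9 in the SCI mice, and 38.2, 39.97 and 43.2 in the SCI+FIPI mice. Both injured groups lay far above the Sham mice and overlapped each other. It was 2.07-fold higher in the SCI than in the Sham group (log2 1.05, SE 0.0791, adjusted p = 2.5e-08). Exons of Il4i1 and Nup62 overlap it by 164 bases on the opposite strand.

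Atf4 (ENSMUSG00000042406, chr15:80255184-80257541), the central transcription factor of the response, had 97.4, 94.9 and 96.3 CPM in the Sham mice, 109, 115 and 131 in the SCI mice, and 109.5, 107 and 88.0 in the SCI+FIPI mice. All SCI mice lay above all Sham mice, which were within a narrow range, but the log2 fold change was 0.30 (SE 0.0841, adjusted p = 0.00633), under the limit. The GC and length offsets took this difference to -0.009 (adjusted p = 0.943), so that the direction for Atf4 depended on the scaling. The same offsets took the median of all genes to -0.10 in this comparison. Ddit3 (ENSMUSG00000025408, chr10:127290774-127296288), which encodes CHOP, a factor that promotes cell death under lasting stress, had 24.9, 28.1 and 25.7 CPM in the Sham mice, 33.8, 31.9 and 36.4 in the SCI mice, and 32.0, 32.0 and 33.3 in the SCI+FIPI mice. The Sham mice lay below all mice of both injured groups, at a log2 fold change of 0.38 in the SCI group (SE 0.0753, adjusted p = 0.000459), also under the limit. Exons of Mars and Gm4189 overlap Ddit3 by 81 bases on the opposite strand, and 6.1% of its 50-base stretches occur in another entry of the same symbol.

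The targets of ATF4 and CHOP among the 10 genes went in different directions. Trib3 (ENSMUSG00000032715, chr2:152337422-152344032), a pseudokinase induced by ATF4 and CHOP, had 1.01, 0.777 and 0.752 CPM in the Sham mice, 3.10, 4.34 and 4.18 in the SCI mice, and 3.44, 2.54 and 2.68 in the SCI+FIPI mice. It was the least abundant of the genes, on 18 to 21 counts in the Sham mice, with every Sham mouse far below every injured mouse. Its level was 4.58-fold higher in the SCI than in the Sham group (log2 2.20, SE 0.236, adjusted p = 1.06e-06), the largest difference among the 10. Asns (ENSMUSG00000029752, chr6:7675169-7693254), asparagine synthetase, had 71.3, 68.5 and 79.5 CPM in the Sham mice, 36.4, 36.4 and 30.04 in the SCI mice, and 44.7, 43.7 and 41.0 in the SCI+FIPI mice. The 3 groups did not overlap and Asns fell 2.13-fold from the Sham to the SCI group (log2 -1.09, SE 0.0825, adjusted p = 2.62e-08). Chac1 (ENSMUSG00000027313, chr2:119351229-119354381), which breaks down glutathione, had 9.49, 8.12 and 6.52 CPM in the Sham mice, 5.66, 7.65 and 5.15 in the SCI mice, and 6.62, 7.63 and 6.38 in the SCI+FIPI mice. The groups overlapped and the difference in the SCI group, a log2 fold change of -0.38 (SE 0.173, adjusted p = 0.0642), did not pass the test. Without Sham mouse 3 it was -0.52 (adjusted p = 0.0211), without SCI mouse 2 -0.57 (adjusted p = 0.0124), and with the GC and length offsets -0.68 (adjusted p = 0.0025), each past both limits.

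The groups did not overlap for 7 of the 10 genes between SCI and Sham mice, 6 higher and 1 lower in the SCI group, beside 70.5% of all genes tested, 35.6% higher and 35.0% lower.

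Levels of the 10 genes can be set against each other only per length. On the scale of FPKM, CPM divided by the exonic length in kilobases, Hspa5 was highest in each group, with 73.5 ± 15.2 in the Sham, 125 ± 13.3 in the SCI and 101.8 ± 0.535 in the SCI+FIPI group (SD, n = 3 mice each). Hsp90b1 and Atf4 followed and overlapped in each group, with 52.3 ± 2.24 and 50.2 ± 4.83 FPKM in the SCI group (SD, n = 3). Asns stood the fifth in the Sham group at 26.7 ± 2.09 FPKM, where it overlapped Herpud1 and Xbp1, and the eighth in the SCI group at 12.5 ± 1.35, with all mice below those of Ddit3. Xbp1 was the sixth in the Sham group at 22.3 ± 4.71 and the fourth in the SCI group at 40.4 ± 3.65, where its mice overlapped neither Atf4 nor Herpud1. Chac1 and Trib3 were lowest in every group, with 3.76 ± 0.807 and 1.82 ± 0.317 FPKM in the SCI group. The order of the means in the SCI+FIPI group was that of the SCI group.

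**Figure D2:**
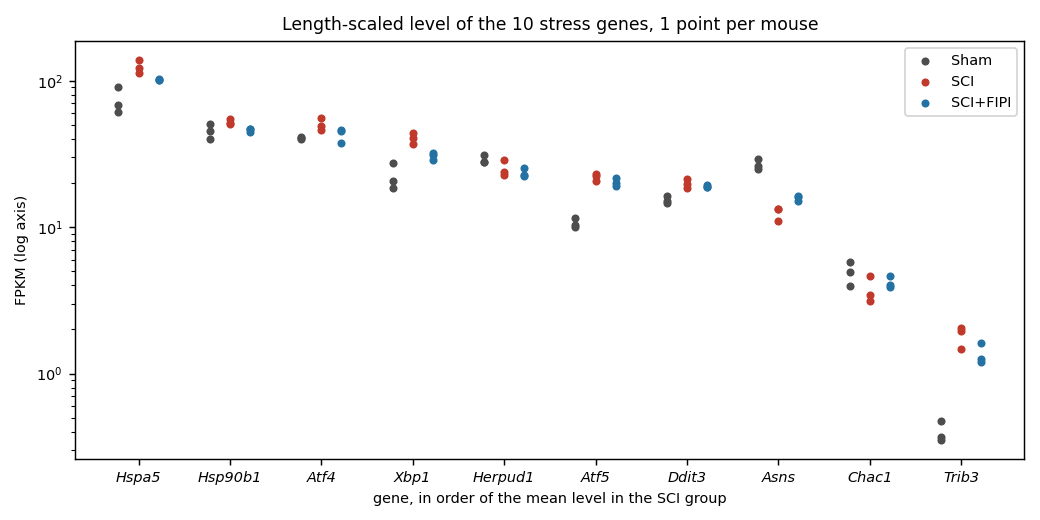
FPKM of the 10 genes in each mouse on a log axis, with 1 point per mouse and genes ordered by their mean in the SCI group (grey, Sham; red, SCI; blue, SCI+FIPI). Hspa5 is highest and Trib3 lowest in each group, and Asns lies among the middle genes in Sham mice and below them in SCI mice.

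In the SCI+FIPI group compared with the SCI group, no gene of the 10 passed both limits in edgeR, beside 3.06% of all genes tested, 2.36% higher and 0.695% lower. DESeq2 and limma-voom also called 0 of the 10, and 5 had an unadjusted p under 0.05 in edgeR, 4 of them lower (Hspa5, Xbp1, Hsp90b1 and Atf4) and 1 higher (Asns). These 5 stand beside 4709 of all 18699 genes tested with an unadjusted p under 0.05, in either direction. Only Asns had an adjusted p under 0.05, beside 9.63% of all genes, 6.04% higher and 3.58% lower. By sign alone 8 of the 10 were lower and 2, Asns and Chac1, higher in the SCI+FIPI group, with a median log2 fold change of -0.15 beside -0.001 for all genes, of which 50.3% were lower and 49.7% higher. This comparison uses the same SCI mice as the one with the Sham group, so that a high or low SCI mouse moves both.

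Asns was 1.26-fold higher in the SCI+FIPI than in the SCI group (log2 0.33, SE 0.0833, 95% interval 0.15 to 0.51, adjusted p = 0.0247), with all 3 SCI+FIPI mice above all 3 SCI mice and below all 3 Sham mice. Over the alternative settings its adjusted p ranged from 0.000547 to 0.104. For Xbp1 the log2 fold change was -0.40 (SE 0.132, 95% interval -0.70 to -0.10, adjusted p = 0.0926), and for Hspa5 -0.30 (SE 0.128, 95% interval -0.58 to -0.01, adjusted p = 0.182). For both, every SCI+FIPI mouse had a lower level than every SCI mouse, and the intervals leave room for differences past the limit. The adjusted p of Xbp1 ranged from 8.7e-06 to 0.271 over the settings, and that of Hspa5 from 0.00103 to 0.422, with log2 fold changes of -0.46 to -0.33 and -0.36 to -0.21, never past the limit on the fold. Without Sham mouse 3, which is in neither of these groups and enters through the shared fit, the adjusted p was 0.00807 for Xbp1 and 0.031 for Hspa5. Hsp90b1 was also lower in each SCI+FIPI mouse than in each SCI mouse (log2 -0.18, 95% interval -0.34 to -0.02, adjusted p = 0.146).

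The groups overlapped for Atf4, Trib3, Atf5, Ddit3, Herpud1 and Chac1. The log2 fold change of Trib3 was -0.42 with a 95% interval of -0.86 to 0.01 (adjusted p = 0.213), the widest among those lower in the SCI+FIPI group. That of Atf5 was -0.12 (95% interval -0.28 to 0.04) and that of Ddit3 -0.07 (95% interval -0.23 to 0.09), so that differences past 0.5 lay outside both intervals. Between SCI+FIPI and SCI mice there was no overlap for 4 of the 10 genes, 3 lower and 1 higher, beside 30.2% of all genes, 14.5% lower and 15.7% higher.

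**Figure D3:**
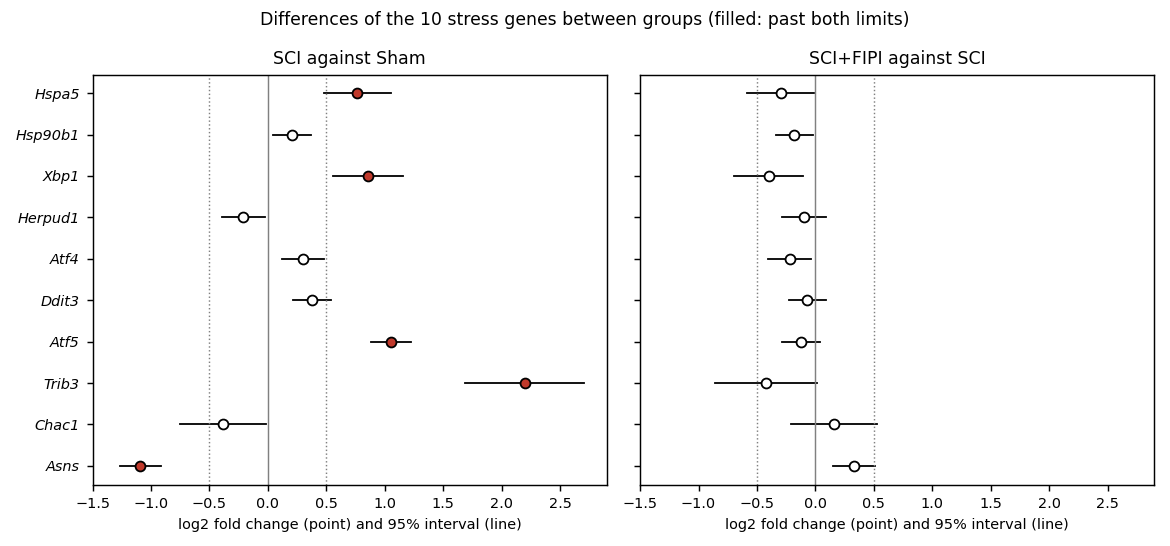
Log2 fold change of each of the 10 genes with its 95% interval, SCI against Sham on the left and SCI+FIPI against SCI on the right; both panels share the SCI mice. Filled points are past both limits and dotted lines mark 0.5 and -0.5. On the left 5 genes pass both limits, and on the right none does.

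In the SCI+FIPI group compared with the Sham group, Trib3 and Atf5 rose and Asns fell, 3 of the 10 genes beside 38.1% of all genes tested, of which 21.2% rose and 17.0% fell. Of the genes called here 55.5% were higher, or 43.9% with the GC and length offsets, under which 2 of the 10 genes rose and 3 fell. Trib3 was 3.42-fold higher (log2 1.77, SE 0.242, adjusted p = 1.74e-05) and Atf5 1.91-fold higher (log2 0.93, SE 0.0793, adjusted p = 1.77e-07). Asns was 1.70-fold lower (log2 -0.76, SE 0.0815, adjusted p = 1.61e-06). Hspa5 and Xbp1 stayed just under the fold limit, at 0.47 (SE 0.128, adjusted p = 0.00918) and 0.46 (SE 0.133, adjusted p = 0.0149). Both passed it without Sham mouse 3, at 0.65 and 0.64, and Xbp1 also without SCI+FIPI mouse 1, at 0.50 (adjusted p = 0.024). Herpud1 was lower in every SCI+FIPI mouse than in every Sham mouse (log2 -0.31, SE 0.0874, adjusted p = 0.00786), and Ddit3 was higher in every one (log2 0.31, SE 0.0755, adjusted p = 0.00276), both under the limit. Groups did not overlap for 7 of the 10 genes, 5 higher and 2 lower, beside 66.3% of all genes, 33.4% higher and 32.9% lower. With an adjusted p under 0.05 at any fold there were 7 genes, 5 higher and 2 lower, beside 59.1% of all genes, 30.1% higher and 29.0% lower, and by sign alone 7 were higher, beside 49.8%.

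Levels of markers of the cell types in the segment also differed between the groups. The summed level of 8 neuron markers was 6883 to 7701 CPM in Sham mice, 2173 to 3004 in SCI mice and 3464 to 4085 in SCI+FIPI mice, the order in which Asns lay, and all 8 fell in the SCI group. The 10 microglia and macrophage markers summed to 508 to 703, 6901 to 8380 and 5141 to 6462 CPM, and the 6 fibroblast markers, of which 3 are collagens, to 329 to 926, 8840 to 11910 and 8172 to 10480 CPM. Of these, 9 of 10 and 6 of 6 rose in the SCI group, as Hspa5 and Xbp1 did. Their part in the differences of the stress genes was not tested. In these bulk samples fewer cells of a type and less RNA per cell cannot be told apart. The 6 oligodendrocyte markers summed to 32400 to 33980 CPM in Sham, 22750 to 25390 in SCI and 23340 to 27600 in SCI+FIPI mice, the 6 astrocyte markers to 7828 to 8221, 11890 to 13690 and 12150 to 12670, and the 5 endothelial markers to 238 to 264, 408 to 438 and 318 to 395. These sums do not describe each marker. In the SCI group 3 of the 6 astrocyte markers rose (Aldh1l1, Aqp4 and Gfap) and 1 fell (Slc1a2). Of the 5 endothelial markers 3 rose and 0 fell past both limits, while 1 was lower at an adjusted p under 0.05. Of the 6 oligodendrocyte markers 3 fell and 0 rose. The 8 plasma cell and B cell markers, which include Xbp1 itself, summed to 139 to 158, 185 to 224 and 167 to 199 CPM, and in the SCI group 2 of the 8 rose (Xbp1 and Sdc1) and 4 fell. The means of these sums were 146.5, 205.4 and 187.3 CPM, of which Xbp1 alone gave 72.4, 131 and 99.4. This sum is therefore no separate measure to set beside Xbp1. The median log2 fold change of the 8 in the SCI group was -0.34. Schwann cell markers summed to 220 to 465, 424 to 533 and 264 to 789 CPM, with Pmp2 at 0 in all Sham mice, and bone and marrow markers to 21.6 to 28.6, 90.4 to 101 and 38.0 to 57.3 CPM. The bone and marrow sums do not describe most of these 8 markers. In the SCI group only Col10a1 was called (log2 9.83), and the median of the 8 was -0.19. In the SCI+FIPI compared with the SCI group Col10a1 was lower (log2 -2.765), while 7 of the 8 were higher (median 0.81).

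Counts of called genes in the lists of other pathway genes that follow stand beside 24.4% of all genes higher and 22.5% lower in the SCI compared with the Sham group, a median of -0.003, and 2.36% higher and 0.695% lower in the SCI+FIPI compared with the SCI group. Counts at an unadjusted p under 0.05 between SCI+FIPI and SCI mice stand beside 4709 of all 18699 genes, in either direction. Of 20 other ER chaperones and folding enzymes 14 rose and 0 fell in the SCI compared with the Sham group, with a median log2 fold change of 0.81. P4hb, the protein disulfide isomerase that also serves collagen prolyl hydroxylase, rose by 1.75 (SE 0.067, adjusted p = 6.22e-11), from 169 to 186 CPM in Sham mice to 554 to 616 in SCI mice. Sdf2l1, a cofactor of BiP, rose by 1.41 (SE 0.107, adjusted p = 5.68e-08), and Txndc5, another disulfide isomerase, by 1.40 (SE 0.0551, adjusted p = 7.81e-11). Exons of Bmp6 and Gm31834 overlap Txndc5 by 535 bases on the opposite strand. The 6 not called were Canx, Dnajb9, Dnajc3, Ero1l, Hyou1 and Ppib. Of the 20 promoters found for 17 of these genes, 6 held ERSE.

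In the SCI+FIPI compared with the SCI group 19 of these 20 chaperone genes were lower, beside 50.3% of all genes, and 14 of them were lower with no overlap between the mice of the groups, beside 14.5% of all genes. Their median log2 fold change was -0.14. None passed both limits in edgeR, DESeq2 or limma-voom, and 1 did with the GC and length offsets or without SCI+FIPI mouse 3. In edgeR 9 had an unadjusted p under 0.05 and 5 an adjusted p under 0.05, all lower. These 5, named after their values were seen, were Sdf2l1 at -0.47 (adjusted p = 0.0141), Calr at -0.26 (0.0399), Pdia3 at -0.26 (0.0301), P4hb at -0.22 (0.0452) and Dnajb11 at -0.19 (0.0358). Calr encodes calreticulin, a lectin chaperone of glycoproteins, Pdia3 its partner ERp57, and Dnajb11 a cochaperone of BiP. Compared with the Sham group 11 of the 20 were higher in SCI+FIPI mice past both limits and 0 lower, beside 21.2% and 17.0% of all genes, or 7 with the GC and length offsets, and P4hb remained 1.53 above it on the log2 scale (SE 0.0666, adjusted p = 3.9e-10).

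**Figure D4:**
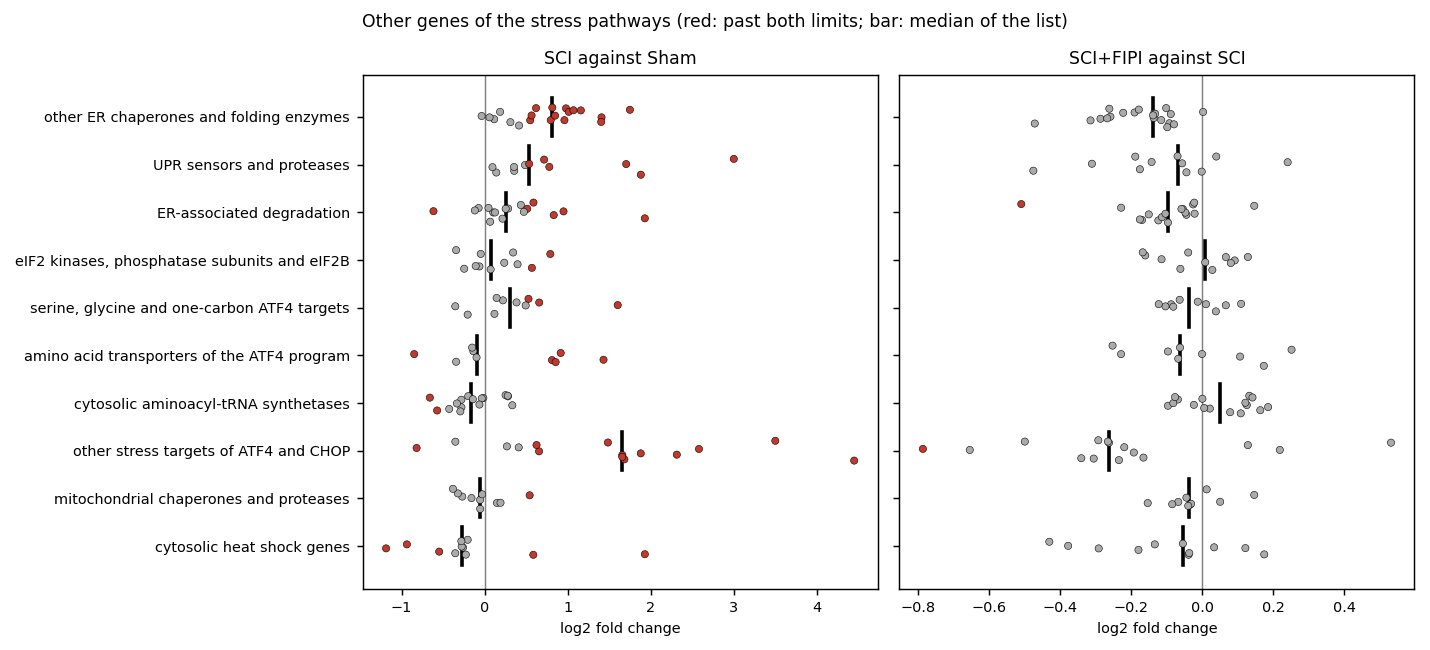
Log2 fold changes of the other genes of the stress pathways, 1 point per gene, for SCI against Sham on the left and SCI+FIPI against SCI on the right, with separate scales. Red points are past both limits and black bars are list medians. The chaperone list lies mostly right of 0 on the left, with 14 of 20 red points, and left of 0 on the right, with none.

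In the list of unfolded protein response sensors, proteases and CREB3 family factors, 6 of 11 rose and 0 fell in the SCI group (median log2 fold change 0.54). The 6 were the sensor gene Ern1 and the CREB3 family genes Creb3, Creb3l1, Creb3l2, Creb3l3 and Creb3l4. Exons of Gba2 and Tln1 overlap Creb3, of 2372 exonic bases, by 493 bases on the opposite strand. Creb3l3 and Creb3l4 were near the floor, with 7 to 11 and 2 to 13 counts in Sham mice. Not called were Atf6, Atf6b, Eif2ak3 and the protease genes Mbtps1 and Mbtps2. Creb3l1, a membrane-bound transcription factor cleaved like ATF6 and known for collagen secretion, rose from 4.84, 5.74 and 6.23 CPM in Sham mice to 36.5, 51.4 and 47.3 in SCI mice, a log2 fold change of 3.00 (SE 0.137, adjusted p = 8.58e-10). It was 31.5, 35.1 and 30.7 CPM in SCI+FIPI mice, lower than in every SCI mouse, at a log2 fold change of -0.48 (SE 0.117, adjusted p = 0.0247) that fell short of the fold limit. Its relative Creb3l2 rose by 0.78 in the SCI group (SE 0.0716, adjusted p = 1.98e-07) and differed by -0.31 between SCI+FIPI and SCI mice (SE 0.0706, adjusted p = 0.0156). Ern1, which encodes IRE1α, rose by 0.72 in the SCI group (SE 0.0969, adjusted p = 1.14e-05). Eif2ak3, which encodes PERK, and Atf6, named for comparison outside the rule, differed by 0.36 (SE 0.0804, adjusted p = 0.00122) and 0.14 (SE 0.0664, adjusted p = 0.076), both short of the limits. Exons of Gm43292 overlap Eif2ak3 by 485 bases on the opposite strand. Between SCI+FIPI and SCI mice edgeR, DESeq2 and limma-voom each called 0 of the 11, with 3 at an unadjusted p under 0.05 in edgeR, all lower. With the GC and length offsets, or without SCI mouse 1, 1 of the 11 was called lower. By sign 9 of the 11 were lower and 2 higher between these groups, beside 50.3% of all genes lower. SCI+FIPI mice had 5 of the 11 above the Sham group past both limits (Ern1, Creb3, Creb3l1, Creb3l3 and Creb3l4), beside 21.2% of all genes.

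Genes of ER-associated degradation, which returns misfolded protein to the proteasome, were mixed. Of 17 genes 5 rose and 1 fell in the SCI group, with a median of 0.25, so that the share of rises was near that of all genes. Edem1, which extracts misfolded glycoproteins from the folding cycle, had 38.2, 37.3 and 42.2 CPM in Sham mice, 133, 159 and 157 in SCI mice and 122, 96.98 and 96.5 in SCI+FIPI mice. It rose by 1.93 in the SCI group (SE 0.103, adjusted p = 7.57e-09) and was lower in the SCI+FIPI group by a log2 fold change of -0.51 (SE 0.0978, adjusted p = 0.0105), just past the limit. Edem1 was the only gene of the list called between these groups, and it was not called with upper-quartile scaling or without SCI mouse 2, SCI mouse 3, SCI+FIPI mouse 2 or SCI+FIPI mouse 3. Its relative Edem2 rose by 0.95 (SE 0.066, adjusted p = 1.11e-08) and the lectin gene Os9 by 0.83 (SE 0.0617, adjusted p = 2.18e-08) in the SCI group, while the ubiquitin-conjugating enzyme gene Ube2j1 fell by 0.62 (SE 0.0726, adjusted p = 2.7e-06). Between SCI+FIPI and SCI mice 16 of the 17 genes were lower by sign and 1 higher, beside 50.3% of all genes lower. Their median log2 fold change was -0.10, and 5 had an unadjusted p under 0.05 in edgeR, all lower.

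The kinases, phosphatase subunits and exchange factor of eIF2 were mostly not called. Of 11 genes 2 rose and 0 fell in the SCI group, with a median of 0.07 that turned to -0.11 with the GC and length offsets. Eif2ak2, the kinase PKR that senses double-stranded RNA, rose by 0.79 (SE 0.0942, adjusted p = 3.09e-06). Exons of Gm26637 and n-R5s29 overlap it by 221 bases on the opposite strand. Ppp1r15a, the stress-induced phosphatase subunit GADD34, rose by 0.57 (SE 0.14, adjusted p = 0.00274), and with the GC and length offsets or without Sham mouse 3 only 1 of the 11 was called. Between SCI+FIPI and SCI mice 0 of the 11 were called by edgeR, DESeq2 or limma-voom, with 2 at an unadjusted p under 0.05 in edgeR.

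The amino acid genes of the ATF4 program, to which Asns belongs, were listed as metabolic enzymes, transporters and tRNA synthetases. Among 10 genes of serine, glycine, proline and one-carbon metabolism 3 rose and 0 fell in the SCI group. They were Pycr1 (log2 1.60, SE 0.132, adjusted p = 6.17e-08) and Aldh18a1 (log2 0.66, SE 0.104, adjusted p = 6.36e-05), both of proline synthesis, and the alanine aminotransferase Gpt2 (log2 0.53, SE 0.0661, adjusted p = 5.16e-06). With the GC and length offsets 1 of the 10 rose. Among 9 transporters 4 rose and 1 fell. Slc1a5, which carries glutamine, rose by 1.43 (SE 0.139, adjusted p = 1.2e-06), the cystine carrier Slc7a11 by 0.92 (SE 0.285, adjusted p = 0.0263) and the leucine carrier Slc7a5 by 0.86 (SE 0.0839, adjusted p = 5.57e-07). The glycine transporter Slc6a9 fell by 0.85 (SE 0.0821, adjusted p = 4.23e-07). Exons of B4galt2, Ccdc24 and Gm17114 overlap Slc6a9, of 5141 exonic bases, by 1986 bases on the opposite strand. Its counts may therefore hold reads of these genes. Of 16 cytosolic aminoacyl-tRNA synthetases, which charge tRNAs and many of which are ATF4 targets, 0 rose and 2 fell in the SCI group, and with the GC and length offsets 5 fell. The 2 were Nars, which like Asns is specific to asparagine, at -0.66 (SE 0.0781, adjusted p = 2.9e-06), and Yars at -0.57 (SE 0.0711, adjusted p = 4.67e-06). Between SCI+FIPI and SCI mice edgeR, DESeq2 and limma-voom called 0 genes in each of these 3 lists. The unadjusted p was under 0.05 in edgeR for 0 of the 10 metabolic genes, 2 of the transporters, both lower, and 4 of the synthetases, all higher.

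Of 15 tested stress targets of ATF4 and CHOP outside amino acid supply 11 rose and 1 fell in the SCI group, with a median log2 fold change of 1.66. Fgf21, listed with them, had too few counts to be tested. Gdf15, a secreted stress hormone, had 0.910, 0.346 and 0.460 CPM in Sham mice, 10.02, 9.47 and 17.7 in SCI mice and 10.8, 5.85 and 7.05 in SCI+FIPI mice. Its log2 fold change in the SCI group was 4.45 (SE 0.44, adjusted p = 1.58e-05). The transcription factor Atf3, also induced by axon injury, rose by 3.50 (SE 0.23, adjusted p = 2.35e-06) and Cebpb, the CHOP partner also active in macrophages, by 2.58 (SE 0.463, adjusted p = 0.00145). Exons of Tmem189 overlap Cebpb by 312 bases on the opposite strand. The lipoprotein receptor Vldlr fell by 0.82 (SE 0.0679, adjusted p = 6.69e-08).

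Pmaip1, which encodes NOXA, a promoter of apoptosis, was the only one of these 15 genes called between SCI+FIPI and SCI mice. It had 2.92, 2.33 and 2.84 CPM in Sham mice, 7.34, 11.4 and 7.30 in SCI mice and 4.96, 5.001 and 5.12 in SCI+FIPI mice. All SCI+FIPI mice lay below all SCI mice and above all Sham mice. The log2 fold change between SCI+FIPI and SCI mice was -0.79 (SE 0.178, adjusted p = 0.0151). The gene is of low level and SCI mouse 2 was the highest, and without SCI mouse 2 or SCI+FIPI mouse 2 no gene of the list was called. For Gdf15 and Atf3 the values between these groups were -0.65 (SE 0.314, adjusted p = 0.238) and -0.50 (SE 0.19, adjusted p = 0.15), and for Cebpb 0.53 (SE 0.374, adjusted p = 0.433). In edgeR 8 of the 15 genes had an unadjusted p under 0.05, 7 lower and 1 higher. An adjusted p under 0.05 was reached by 2, both lower. By sign 12 of the 15 were lower and 3 higher, beside 50.3% of all genes lower. On the log2 scale the middle value of the list was -0.26. Mice of the groups did not overlap for 6 lower and 2 higher genes, beside 14.5% and 15.7% of all genes.

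Stress genes of mitochondria and cytosol were listed beside those of the ER. Among 10 mitochondrial chaperones and proteases 1 rose in the SCI group, the protease gene Htra2 (log2 0.54, SE 0.0868, adjusted p = 5.93e-05), and it was not called with upper-quartile scaling or without Sham mouse 2 or SCI mouse 3. Exons of Aup1 and Loxl3 overlap Htra2, of 2946 exonic bases, by 1288 bases on the opposite strand. Its counts may therefore hold reads of these genes. Among 11 cytosolic heat shock genes 2 rose and 3 fell, or 1 and 2 with the replicate block and the offsets together. The small heat shock protein gene Hspb1 rose by 1.93 (SE 0.172, adjusted p = 1.59e-05) and the cochaperone Bag3 by 0.59 (SE 0.067, adjusted p = 2e-06). The Hsp110 gene Hsph1 fell by 1.19 (SE 0.104, adjusted p = 7.42e-07), the Hsp90 gene Hsp90aa1 by 0.94 (SE 0.0802, adjusted p = 9.49e-08) and the Hsp40 gene Dnaja1 by 0.55 (SE 0.0755, adjusted p = 1.36e-05). The values of Hspb1 and Hsp90aa1 are uncertain, since 51.6% and 58.5% of their 50-base stretches occur in other genes. For Dnaja1 this share is 18.7%, and exons of Gm6297 and Smu1 overlap it by 857 bases on the opposite strand. Between SCI+FIPI and SCI mice edgeR, DESeq2 and limma-voom called 0 genes in both lists, and in edgeR 1 of the 10 and 2 of the 11 had an unadjusted p under 0.05.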

How the data were processed

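The authors trimmed the reads, counted them per gene and deposited raw counts without normalization, read here as whole numbers for 52550 genes in 9 mice. The submitters' processing notes name R 4.2.3 and GRCm38. The aligner, counting program, annotation and use of strand are not given in the sources used here. Identifiers were matched to GENCODE M21 (52403 of them) for symbols, positions, lengths and GC content. Coordinates of genes are those of that annotation on GRCm38.

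Differences were fitted with edgeR 4.0.16 in R 4.3.3 (TMM factors, filterByExpr by group, a robust quasi-likelihood fit of 3 group means, 6 residual degrees of freedom, common dispersion 0.00866, a biological coefficient of variation of 9.3%). The study's methods give the limits but no test. CPM and FPKM were computed from the counts, and levels of single genes were also compared by exact permutation of log2 CPM (prior count 2). Within groups, counts varied beyond sampling noise (chi-square per gene 6.76 to 13.2), so each mouse was 1 replicate. Shared replicate numbers belong to different animals.

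The 10 genes and the pathway and marker lists were chosen with earlier results of these data known. Named genes were the 10, every listed gene past both limits between SCI+FIPI and SCI, and from each list and comparison up to 3 rises and 3 falls past both limits, for genes at a mean log2 CPM of 1 or more and groups that did not overlap. Not all of them are printed. The steps were tested on simulated data. Tried in turn were upper-quartile or RLE factors, no filter or at least 10 counts in every mouse, DESeq2 1.42.0, limma-voom (limma 3.58.1), edgeR on the groups compared, a replicate block, GC and length offsets, both together, other limits, and each mouse left out. Behavior, staining and PCR data were not analysed here.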

Additional observations from a re-analysis of the deposited data

How the results depend on the processing

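The members called numbered 5 between SCI and Sham mice (3 at a log2 limit of 1, 9 with no fold limit, 7 with the GC and length offsets, alone or with the block, and 5 to 6 with each mouse left out), 0 between SCI+FIPI and SCI mice (1 with no fold limit) and 3 between SCI+FIPI and Sham mice (1 and 7 in the same order). With each mouse left out the last count was 3 to 5, with 5 without Sham mouse 3. With GC and length offsets, alone or with the replicate block, it was 5. All genes called numbered 8780 between SCI and Sham mice (5059 at a limit of 1), 572 between SCI+FIPI and SCI mice (1800 with no fold limit, 65 at a limit of 1, 189 to 1038 with each mouse left out) and 7128 between SCI+FIPI and Sham mice (11060 with no fold limit, 3376 at a limit of 1). The 572 became 341 without SCI mouse 2, 240 without SCI mouse 3, 1038 without SCI mouse 1 and 189 without SCI+FIPI mouse 2. The offsets moved the median of all genes by -0.10 and -0.12 in the comparisons with Sham, and the share of higher genes among those called against Sham went from 55.5% to 43.9% in SCI+FIPI mice and from 52.1% to 44.7% in SCI mice. Against that shift, Atf4 at -0.009 in SCI mice lay above the median of all genes, and Herpud1 at -0.52 lay less than 0.5 below it.

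Of 570 values of single genes under the alternatives, 548 stayed on the same side of the limits, 13 passed them newly and 9 changed sign. The latter were Atf4 with the offsets, alone and with the block, at -0.009 in the SCI group, and at -0.25 in both fits in the SCI+FIPI group compared with Sham; Herpud1 between SCI+FIPI and SCI mice, at 0.012 without SCI mouse 2 and between -0.156 and that value with each mouse left out; and Hsp90b1 between SCI+FIPI and Sham mice, at -0.018 with upper-quartile factors, -0.047 with the offsets, -0.043 with the offsets and block, and -0.056 without Sham mouse 1. None of these values was called. Deviations of same-numbered mice correlated at -0.07 to 0.11, over 0.1 in 1 of 9 pairs. These values show no strong pairing of the mice by number, and with 3 mice per group they cannot settle whether there was a weak one. The replicate block alone left 5, 0 and 3 members called and 8744, 555 and 7115 genes. The causes were not tested.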
